A study of Rattus norvegicus with 2 samples.

Results

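The 37 genes described here are interferon-stimulated genes and interferon regulatory factors, chosen by gene symbol with earlier results of these data known. All 37 had a row among the 32662 genes of the table. They were measured in retinas of Long-Evans rats by RNA sequencing after removal of ribosomal RNA. The sham-operated retina (CTRL) was compared with a retina subjected to ischemia and taken 12 hours after blood flow returned (IR12), and the rats were female and 2 months old. Whether the retinas came from different rats is not given in the sources used here. Each condition had 1 library, so no difference below has a replicate check, and none has a p-value or a standard deviation.

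Interferons are secreted alarm proteins. Type I interferons and interferon gamma bind separate receptors, whose Jak kinases phosphorylate Stat proteins. A complex of Stat proteins with Irf9 binds the interferon-stimulated response element (ISRE), and pairs of Stat proteins bind the gamma-activated site (GAS). The induced genes encode GTPases that attack vacuoles of microbes, proteins that block viral RNA and its translation, RNA sensors, and regulators that amplify or dampen the response. In the retina these genes are known to be induced in glia and incoming leukocytes during inflammation.

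Levels are FPKM, fragment counts scaled by transcript length and by sequencing depth, so they can be compared between genes per length. Changes are log2 ratios of FPKM + 1, IR12 over CTRL. The added 1 shrinks the changes of weakly expressed genes. A member is called higher or lower where the log2 ratio was at least 1 or at most -1, that is 2-fold on this scale. Genes were tested against this line where the mean FPKM of both libraries was at least 1. The rods of the retina were well represented in both libraries, with *Gnat1*, the rod transducin, at 4027 FPKM in CTRL and 4237 FPKM in IR12.

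Most members were higher in IR12. Of the 31 members with a mean FPKM of at least 1, 25 passed 2-fold upward and 0 downward, against 6.29% and 6.05% of the 13186 genes tested in the same way. The other 6 members (*Gbp1*, *Ifit1*, *Bst2*, *Zbp1*, *Irf4* and *Irf5*) lay under the minimum. Counting all 37 members without a minimum, 35 were higher by any amount, and *Irf2* and *Irf4* were lower, *Irf2* with FPKM as deposited but not with both libraries rescaled to the same sum, which moved the median of all genes by 0.59. *Igtp*, *Oasl*, *Irf3* and *Irf8* were called higher after rescaling to the same sum, beside 22.3% of all genes tested. Relative to the median of all genes they were at 0.91, 0.49, 0.88 and 0.52 there. *Ifit2* was not called where that sum left out small non-coding RNA genes. With 0.1 added in place of 1, *Igtp* and *Irf8* were called too, at 1.21 and 1.13, beside 7.84% of all genes tested. By any amount, 51.9% of the 13186 genes were higher. Without a minimum, 10174 of the 32662 genes were higher and 8926 were lower.

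A gene that is low in CTRL passes the minimum only when it is high in IR12, so the counts were also read by the level in CTRL. Among 12 members with under 1 FPKM in CTRL that passed, 11 were at least 2-fold higher, but so were 66.5% of the 442 genes of that kind. Their median log2 ratio was 2.11, beside 1.63 over those genes. Among the 19 members with at least 1 FPKM in CTRL, 14 were at least 2-fold higher, beside 4.20% of the 12744 genes at such levels. Their median log2 ratio was 1.76, beside 0.003. Of the 14 at 1 to 5 FPKM in CTRL, 11 were called, beside 6.96% of such genes. Of the 5 at 5 FPKM or more, 3 were called, beside 3.31%. The count and median among low members are therefore no result about the members, while those among the others stand beside a low background. Since the members were chosen with earlier results of these data known, this contrast is a description and not a test. Roles, pathway genes and markers below are read beside the same shares. Where a count of calls is given alone, its share is 4.20% for higher, at 1 FPKM or more in CTRL. For lower it is 6.05% of all genes tested. After rescaling to the same sum, the shares were 22.3% of all genes tested for higher and 3.40% for lower.

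The summed level of the 37 members was 109 FPKM in CTRL and 601 FPKM in IR12, a ratio of 5.53. *Gbp2* alone made up 34.8% of the sum in IR12. Without it the sums were 107 and 392 FPKM, a ratio of 3.66. In CTRL the sum was led by *Irf3* with 26.7%, *Irf2* with 12.7% and *Irf9* with 9.72%. The number of members at 10 FPKM or more went from 3 in CTRL to 13 in IR12, and the number at 1 FPKM or more from 19 to 32. Over all genes of the table the numbers were 7536 and 7685 at 10 FPKM or more, and 12958 and 12884 at 1 FPKM or more.

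**Figure D1:**
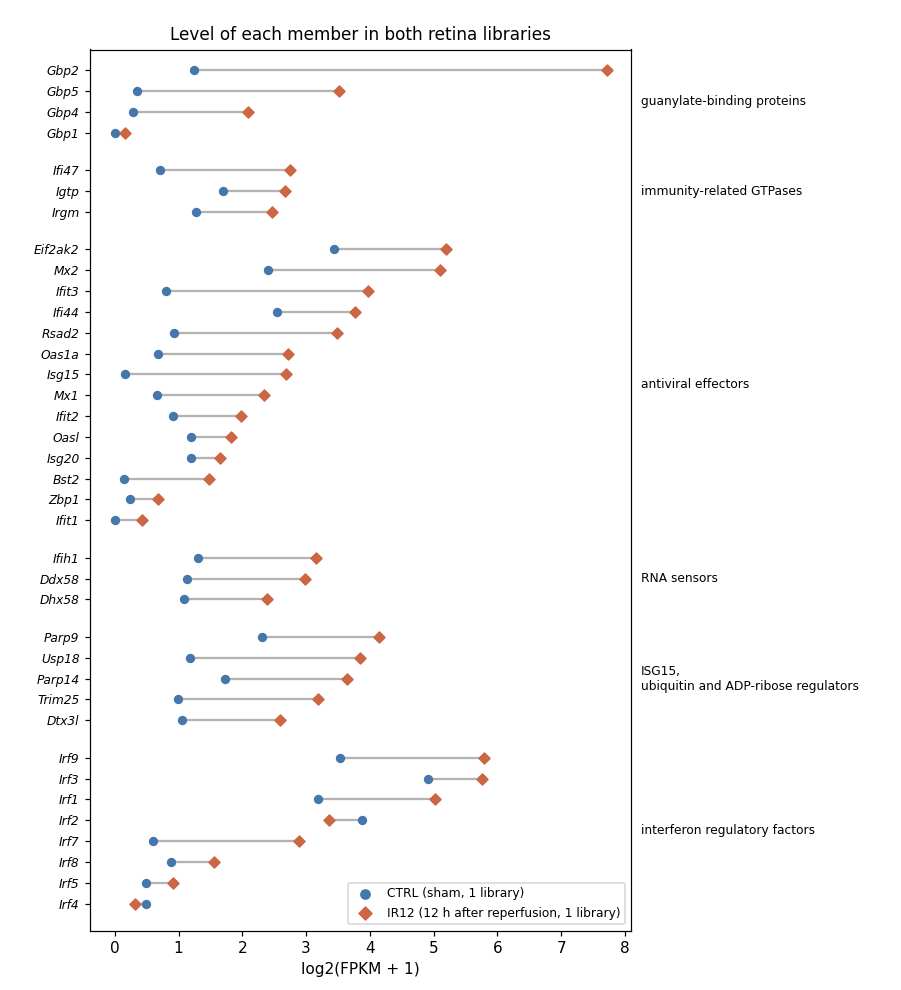
Level of each of the 37 members as log2(FPKM + 1) on the horizontal axis, in CTRL (circles) and IR12 (diamonds), grouped by role, with 1 library per condition. The IR12 point lies to the right of the CTRL point for 35 members and to the left for *Irf4* and *Irf2* with FPKM as deposited (*Irf2* to the right if rescaled to the same sum, which moves the median of all genes by 0.59), and *Gbp2* spans the widest gap, from 1.37 to 209 FPKM.

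The guanylate-binding proteins are large GTPases that gather on membranes of intracellular microbes and help to trigger inflammasomes. *Gbp2* (ENSRNOG00000031743) was at 1.37 FPKM in CTRL and 209 FPKM in IR12, which is 153 times as high. Its log2 ratio of 6.47 ranked 3 among the 13186 genes, and in IR12 no other member came near its level. *Gbp5*, a partner of inflammasome assembly, was at 0.268 FPKM in CTRL and 10.4 FPKM in IR12, a log2 ratio of 3.17. *Gbp4* was at 0.214 and 3.28 FPKM, a log2 ratio of 1.82. *Gbp1* was listed at 0 in CTRL and at 0.121 FPKM in IR12, so the family was not raised to a common level. The 3 genes over the minimum were called higher, but *Gbp4* and *Gbp5* were under 1 FPKM in CTRL and passed only through IR12, so no count is read from them. Over all 4, without a minimum, the median log2 ratio was 2.49.

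In the build of the table, rn6, the 4 genes lie in 1 cluster on chromosome 2. *Gbp5* is at chr2:248178389-248197160, *Gbp4* at chr2:248249468-248263168, *Gbp2* at chr2:248276709-248293784 and *Gbp1* at chr2:248398917-248409570. The predicted gene LOC685067 lies between *Gbp5* and *Gbp4* and was at 0.542 FPKM in CTRL and 6.35 FPKM in IR12. *Gbp3*, at the far end of the cluster, was listed at 0 in CTRL and at 0.0448 FPKM in IR12. Neighbours in the cluster therefore differed widely in IR12, from 0.0448 to 209 FPKM. These genes are similar in sequence, and reads that fit several of them could have been split, so the values of single family members are uncertain.

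The promoter of *Gbp2* is shown because this gene had the largest change of any member. The sequence is from RefSeq, build GRCr8, + strand, chr2:234005477-234005776, from 250 bases before the annotated start to 50 bases after it. Capitals mark the letters of the ISRE core searched for, GAAANNGAAA on either strand, which here read on the opposite strand and begin 31 bases before the start.
Gbp2: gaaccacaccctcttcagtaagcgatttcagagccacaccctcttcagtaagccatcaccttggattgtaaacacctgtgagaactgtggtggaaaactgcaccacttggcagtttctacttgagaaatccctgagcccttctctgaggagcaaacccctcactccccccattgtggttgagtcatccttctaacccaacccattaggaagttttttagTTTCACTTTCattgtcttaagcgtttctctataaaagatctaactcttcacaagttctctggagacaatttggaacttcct
The same letters lie close to the start of *Gbp4* and *Gbp5*, shown as 50 bases around the capitals, from chr2:233978461-233978510 and chr2:233910928-233910977, both on the + strand. They begin 10 bases before the start of *Gbp4* and 56 bases before that of *Gbp5*.
Gbp4: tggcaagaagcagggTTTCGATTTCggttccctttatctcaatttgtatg
Gbp5: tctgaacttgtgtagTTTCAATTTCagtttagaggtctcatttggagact
*Gbp1*, whose level stayed near 0, had 2 windows, and 1 of them held these letters 3 times. The letters were thus present in windows of all 4 genes, whatever their level in IR12.

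The immunity-related GTPases are smaller relatives that mark and disrupt vacuoles of pathogens. *Ifi47* was at 0.634 FPKM in CTRL and 5.68 FPKM in IR12, a log2 ratio of 2.03. *Irgm*, a regulator of the other GTPases and of autophagy, was at 1.42 and 4.54 FPKM, a log2 ratio of 1.20. *Igtp* was at 2.26 and 5.37 FPKM, a log2 ratio of 0.97, just under the 2-fold line. These 3 genes ended between 4.54 and 5.68 FPKM in IR12, although *Igtp* started from the highest level.

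*Igtp* and *Irgm* are shown for an arrangement they share with *Parp14*. In each, the GAS letters searched for, TTCNNNGAA, begin 11 bases before ISRE letters on the strand of the gene. The 50-base stretches are from RefSeq, build GRCr8: *Igtp* from chr10:42874918-42874967 on the + strand, *Irgm* from chr10:33742589-33742638 on the - strand, and *Parp14* from chr11:78408032-78408081 on the + strand. Capitals mark both motifs.
Igtp: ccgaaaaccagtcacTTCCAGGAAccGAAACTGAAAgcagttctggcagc
Irgm: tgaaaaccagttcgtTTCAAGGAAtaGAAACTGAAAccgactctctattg
Parp14: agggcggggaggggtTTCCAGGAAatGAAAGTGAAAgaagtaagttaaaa
This spacing was noticed after the sequences were read. It was found, on either strand, for 7 of the 27457 gene symbols with a promoter window, 3 of them members.

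The antiviral effectors act on viral RNA, on translation or on the release of virus particles. All 14 were higher in IR12 by some amount. Of the 11 over the minimum, 9 were called higher and *Isg20* and *Oasl* were not. All 6 with under 1 FPKM in CTRL were among the 9, beside 66.5% of all such genes. Of the 5 with at least 1 FPKM in CTRL 3 were called, beside 4.20% of all such genes. The median log2 ratio was 1.504 over all 14, without a minimum.

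*Ifit3*, which belongs to a family that binds viral RNA, was at 0.740 FPKM in CTRL and 14.7 FPKM in IR12. Its log2 ratio of 3.17 was the largest of this group with the added 1. With 0.1 added in its place *Isg15* lay higher, at 4.67, and *Ifit3* at 4.14. *Ifit2* was at 0.891 and 2.93 FPKM, with a log2 ratio of 1.05, close to the 2-fold line. *Ifit1* was listed at 0 in CTRL and at 0.346 FPKM in IR12, so the 3 *Ifit* genes differed widely in level after injury. The 3 lie together on chromosome 1, with 5507 bases between the loci of *Ifit2* and *Ifit3*.

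*Rsad2* encodes viperin, which makes a chain-terminating nucleotide. It was at 0.899 FPKM in CTRL and 10.2 FPKM in IR12, a log2 ratio of 2.56. *Isg15*, a ubiquitin-like protein that is joined to other proteins, was at 0.117 FPKM in CTRL and 5.40 FPKM in IR12. Its FPKM was 46.3 times as high, and its log2 ratio was 2.52. Both genes thus went from under 1 FPKM to levels well above it.

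Mx proteins are dynamin-like GTPases that trap viral components. *Mx2* was at 4.29 FPKM in CTRL and 33.1 FPKM in IR12, a log2 ratio of 2.69. *Mx1* was at 0.584 and 4.08 FPKM, a log2 ratio of 1.68. *Mx2* was the more abundant of the pair in both libraries. They are similar neighbours on chromosome 11, so reads could have been shared between them and the value of each is uncertain.

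*Eif2ak2* encodes the RNA-dependent kinase PKR, which halts translation. It was the most abundant effector in both libraries, at 9.78 FPKM in CTRL and 35.4 FPKM in IR12, with a log2 ratio of 1.76. *Ifi44* was at 4.84 and 12.6 FPKM, a log2 ratio of 1.22. *Oas1a*, which makes the messenger that activates RNase L, was at 0.596 and 5.55 FPKM, a log2 ratio of 2.04. Its relative *Oasl* was at 1.30 and 2.52 FPKM, a log2 ratio of 0.61, and was not called. The oligoadenylate synthetase genes form a family of similar sequences, which makes their separate values uncertain.

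*Isg20*, an RNA exonuclease, was at 1.29 FPKM in CTRL and 2.14 FPKM in IR12. Its log2 ratio of 0.46 was the smallest of the effectors over the minimum. *Bst2*, or tetherin, holds virus particles at the cell surface, and was at 0.111 and 1.79 FPKM. Its mean lay just under the minimum, and its log2 ratio was 1.33. *Zbp1*, a sensor that can start necroptosis, was at 0.174 FPKM in CTRL and 0.595 FPKM in IR12, below 1 FPKM in both libraries.

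The promoters of *Ifit3* and *Rsad2* are shown as effectors with large changes, from chr1:241527267-241527316 on the + strand and chr6:48788233-48788282 on the - strand of GRCr8. That of *Bst2*, from chr16:18255070-18255119 on the - strand, holds a run in which GAS letters overlap ISRE letters. Capitals mark the motifs as above.
Ifit3: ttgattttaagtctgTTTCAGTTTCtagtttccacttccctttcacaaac
Rsad2: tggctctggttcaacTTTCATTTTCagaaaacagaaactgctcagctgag
Bst2: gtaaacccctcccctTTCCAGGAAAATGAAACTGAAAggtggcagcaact

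The RNA sensors detect viral RNA in the cytoplasm and signal toward interferon production. *Ifih1*, which encodes MDA5, was at 1.46 FPKM in CTRL and 7.94 FPKM in IR12, a log2 ratio of 1.86. *Ddx58*, which encodes RIG-I, was at 1.18 and 6.88 FPKM, a log2 ratio of 1.85. *Dhx58*, their modulator LGP2, was at 1.12 and 4.26 FPKM, a log2 ratio of 1.31. All 3 were called higher, beside 4.20% of all genes with at least 1 FPKM in CTRL and 6.96% of those at 1 to 5 FPKM. They started from similar levels in CTRL, each above 1 FPKM.

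The next group regulates the conjugation of ISG15 and ubiquitin or adds ADP-ribose to proteins, and it has 5 members. All 4 with at least 1 FPKM in CTRL were called higher, beside 4.20% of all such genes, and so was *Trim25*, which lay just under 1 FPKM in CTRL, beside 66.5% of tested genes under 1 FPKM there. *Usp18*, the protease that removes ISG15 and dampens receptor signaling, was at 1.26 FPKM in CTRL and 13.4 FPKM in IR12, a log2 ratio of 2.67. *Trim25*, the ubiquitin ligase that activates RIG-I, was at 0.989 and 8.09 FPKM, a log2 ratio of 2.19. *Parp14* was at 2.32 and 11.5 FPKM, a log2 ratio of 1.91. The range of this group, from 1.53 to 2.67, was narrow beside that of the guanylate-binding proteins.

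*Parp9* and *Dtx3l* encode partners of a single ligase complex. *Parp9* was at 3.94 FPKM in CTRL and 16.6 FPKM in IR12, a log2 ratio of 1.83. *Dtx3l* was at 1.09 and 5.03 FPKM, a log2 ratio of 1.53. Their loci on chromosome 11 are 1128 bases apart, and their FPKM ratios were 4.21 and 4.62. The pair thus changed by similar factors from different levels.

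Interferon regulatory factors are the transcription factors that drive or restrain interferon and its targets. Of the 6 over the minimum, 3 were called higher. By level these were 2 of the 4 with at least 1 FPKM in CTRL, beside 4.20% of all such genes, and 1 of the 2 below it, beside 66.5%. The median log2 ratio was 0.77 over all 8, without a minimum. Their summed level was 63.5 FPKM in CTRL and 158 FPKM in IR12, so they made up a larger part of the members' sum in CTRL (63.5 of 109 FPKM) than in IR12 (158 of 601 FPKM).

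*Irf9*, the DNA-binding partner of Stat proteins, was at 10.6 FPKM in CTRL and 54.3 FPKM in IR12, a log2 ratio of 2.26. *Irf7*, the amplifier of type I interferon genes, was at 0.513 and 6.37 FPKM, a log2 ratio of 2.28. *Irf1*, an early target of interferon gamma, was at 8.06 and 31.4 FPKM, a log2 ratio of 1.84. These 3 were the factors called higher. *Irf3*, which is present in resting cells and activated by phosphorylation, was at 29.0 and 53.3 FPKM, a log2 ratio of 0.86, and was not called.

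*Irf2*, an antagonist of Irf1 at shared sites, was at 13.7 FPKM in CTRL and 9.24 FPKM in IR12. Its log2 ratio was -0.53 with FPKM as deposited and 0.069 with both libraries rescaled to the same sum. That scaling moved the median of all genes upward, and relative to it *Irf2* was at -0.55 there. *Irf2* was above *Irf1* in CTRL and below it in IR12. *Irf8*, a factor of the myeloid lineage, was at 0.832 and 1.94 FPKM, a log2 ratio of 0.68. The lymphoid factor *Irf4* was at 0.397 and 0.241 FPKM, and *Irf5* was at 0.401 and 0.883 FPKM, so neither reached 1 FPKM in either library.

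Some loci overlap other genes in the table, and whether strand was used in counting is not given in the sources used here. *Irf7* shares its listed locus with *Phrf1*, which was at 17.5 FPKM in CTRL and 19.8 FPKM in IR12. *Irf5* shares its own with *Tnpo3*, at 28.8 and 38.2 FPKM. The genes sharing the loci of *Igtp*, *Irf2* and *Irf3* were at 0.230 FPKM or less in both libraries. The other 32 members shared their locus with no listed gene.

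The promoters of *Irf7*, *Irf1* and *Irf9* are shown because these factors were called higher and hold different motifs. They are from chr1:205800058-205800107 on the - strand, chr10:38417778-38417827 on the + strand and chr15:33065722-33065771 on the + strand of GRCr8. The capitals are ISRE letters in *Irf7* and GAS letters in the other two.
Irf7: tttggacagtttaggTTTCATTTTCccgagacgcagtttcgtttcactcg
Irf1: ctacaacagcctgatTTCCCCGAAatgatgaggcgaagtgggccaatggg
Irf9: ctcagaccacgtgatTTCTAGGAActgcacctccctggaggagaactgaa

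**Figure D2:**
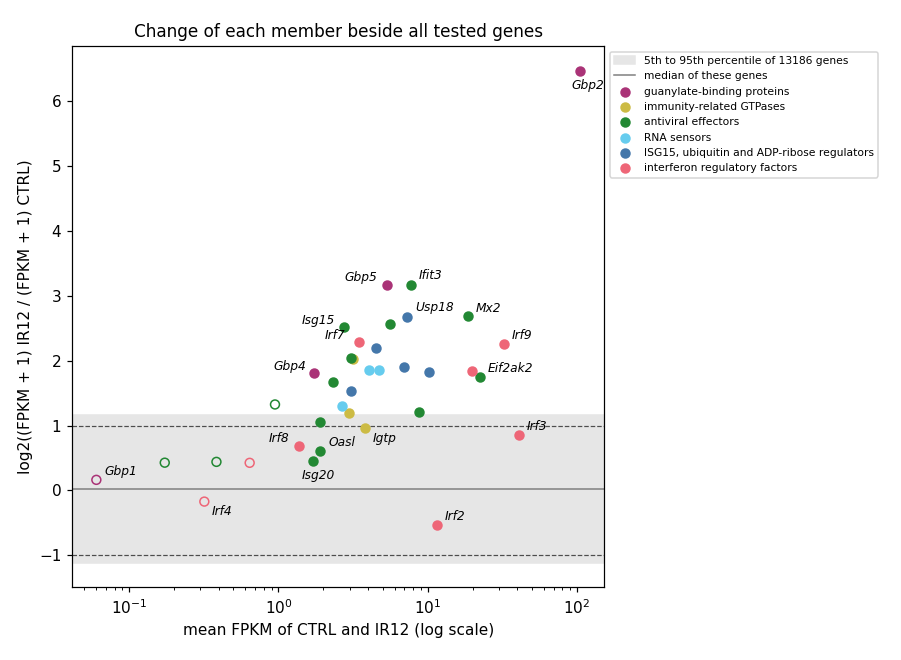
Log2 ratio of FPKM + 1 (IR12 over CTRL) of each member on the vertical axis against its mean FPKM on a log axis, colored by role, with open circles for the 6 members under a mean of 1 FPKM. The gray band holds the 5th to 95th percentile of 13186 genes (-1.11 to 1.16), dashed lines mark 2-fold, and *Gbp2* at 6.47 stands far above the other members, whose highest value is 3.17.

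The position of the motif letters was set out for all members with a RefSeq promoter window. Windows were matched by symbol for 28 of the 37 members, 75.7%. *Isg15*, *Ifit1*, *Ifit2*, *Mx2*, *Zbp1*, *Ddx58*, *Dhx58*, *Usp18* and *Irf2* had no entry. Since under 80% had a window, a share over all members would be void, and the counts describe the matched windows only. ISRE letters were present in windows of 17 of the 28, GAS letters in 9, both in 5 and neither in 7. Over all 33469 windows of the same length, 3.92% held ISRE letters and 8.87% held GAS letters. By gene symbol, as the members were counted, the shares were 4.12% and 9.39% of 27457.

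By role the numbers of windows are small, and no difference between roles was tested. ISRE letters were found in 4 of 4 guanylate-binding protein genes and 7 of 9 antiviral effectors, but in 1 of 7 interferon regulatory factors. GAS letters were found in 3 of 3 immunity-related GTPases and in 3 of the 7 factors, *Irf1*, *Irf8* and *Irf9*. Over all symbols the shares were the 4.12% and 9.39% above. The members with neither were *Mx1*, *Oasl*, *Trim25*, *Parp9*, *Irf3*, *Irf4* and *Irf5*. Among the 5 tested of these, log2 ratios ran from 0.61 to 2.19 (*Trim25*), with a median of 1.68. Among the 15 tested with ISRE letters they ran from 0.46 (*Isg20*) to 6.47, with a median of 1.86. The difference was not tested. A match says only that these letters are in the window, and its absence only that they are not.

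**Figure D3:**
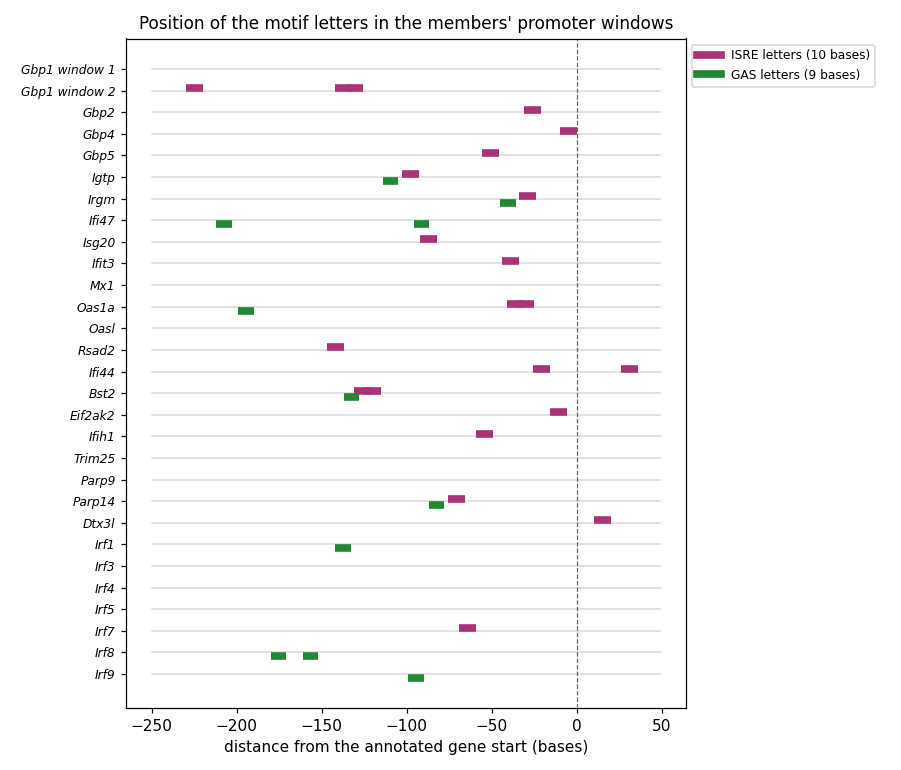
Distance of ISRE letters (purple, 10 bases) and GAS letters (green, 9 bases) from the annotated gene start, in bases, in the promoter windows of 28 members from 250 bases before to 50 bases after the start. *Gbp1* has 2 windows, ISRE letters in *Gbp2*, *Gbp4* and *Gbp5* begin 31, 10 and 56 bases before the start, and 7 members have neither motif.

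The other genes of the pathway were followed from the ligands to the targets, in a list of 88 genes of which 79 were matched to a row. Of the 54 with a mean FPKM of at least 1, 26 passed 2-fold upward and 0 downward, against 6.29% and 6.05% of all genes tested. Of these 54, 12 were under 1 FPKM in CTRL and 11 of them were called, where 66.5% of all such genes were, so that count is no result. Of the 42 with at least 1 FPKM in CTRL, 15 were called higher, beside 4.20% of all such genes, and their median log2 ratio was 0.603, beside 0.003 over all such genes.

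The matched interferon genes themselves were at or near 0. Of 8 matched ligands, *Ifnb1*, *Ifng*, *Ifnk*, *Ifnl3* and *Ifna2* were listed at 0 in both libraries. *Ifne* was at 0.353 FPKM in CTRL and 0.310 FPKM in IR12. *Ifna4* was listed at 0 and 0.207 FPKM, and *Ifna5* at 0.345 FPKM and 0. RNA of these 8 ligands was therefore not detectable beyond traces in either library at this depth, at the only time sampled after injury. *Ifna1* and *Ifnl1* were matched to no row.

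The receptors were expressed in both libraries. *Ifnar1*, the shared type I receptor chain, was at 36.5 FPKM in CTRL and 36.2 FPKM in IR12. *Ifnar2* was at 5.71 and 12.4 FPKM, with a log2 ratio of 0.996, just under the line. For interferon gamma, *Ifngr1* was at 15.1 and 19.3 FPKM, and *Ifngr2* was at 5.63 and 12.8 FPKM. Of 5 tested receptor genes, all at 1 FPKM or more in CTRL, 1 was called higher, beside 4.20% of all such genes. This was *Ifngr2*, with a log2 ratio of 1.06 with FPKM as deposited. It lay at 0.97, under the line, where rescaling left out small non-coding RNA genes. After rescaling to the same sum *Ifnar2* was called, at 1.604, beside 22.3% of all genes tested, and lay at 0.99 relative to their median. The lambda receptor chain *Ifnlr1* was at 0.537 and 0.446 FPKM, and its partner *Il10rb* was at 2.92 and 3.25 FPKM.

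Among the 5 transducers followed, all with at least 1 FPKM in CTRL, *Stat3* alone was called higher, beside 4.20% of all such genes. *Stat3*, which mainly serves cytokines other than interferons, was at 17.7 FPKM in CTRL and 120 FPKM in IR12, a log2 ratio of 2.69. *Stat2*, which acts with Irf9 in type I signaling, was at 14.1 and 28.0 FPKM, with a log2 ratio of 0.95, under the line. The kinases *Jak1* (73.6 and 102 FPKM), *Jak2* (21.9 and 29.7 FPKM) and *Tyk2* (3.68 and 4.02 FPKM) were not called. After rescaling to the same sum *Stat2*, *Jak1* and *Jak2* were called higher, beside 22.3% of all genes tested. Relative to the median of all genes they were at 0.96, 0.49 and 0.43 there, under the line.

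Of the negative regulators, *Socs3*, an inhibitor induced by Stat3, was at 0.393 FPKM in CTRL and 29.1 FPKM in IR12, a log2 ratio of 4.43. It was the 1 of 5 tested regulators called higher, and it passed the minimum only through IR12, so its call is no result. Of the 4 with at least 1 FPKM in CTRL 0 were called, beside 4.20% of all such genes. After rescaling to the same sum *Ptpn2* and *Ptpn6* were called too, beside 22.3% of all genes tested. They were at 0.43 and 0.60 relative to the median of all genes there. Of the genes that sense nucleic acids upstream of interferon, 4 were tested, all with at least 1 FPKM in CTRL. Of these, 1 was called higher, beside 4.20% of all such genes. This was *Myd88*, the adaptor of Toll-like receptors and of an interleukin receptor, at 1.70 and 12.8 FPKM.

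Of 10 tested interferon-gamma targets, 9 were called higher. All 6 with under 1 FPKM in CTRL were among them, which is no result about the targets. Of the 4 with at least 1 FPKM in CTRL, *B2m*, *Psmb10* and *Cd274* were called, beside 4.20% of all such genes. The chemokine *Cxcl10* was at 0.139 FPKM in CTRL and 11.5 FPKM in IR12, a log2 ratio of 3.45. *Cxcl11* was at 0.288 and 3.73 FPKM, and *Cxcl9* was listed at 0 and 2.17 FPKM. *Cxcl10* and *Cxcl11* share a listed locus, so their reads may not be fully separated. Antigen presentation was represented by *B2m*, at 65.7 and 188 FPKM, the peptide transporter gene *Tap1*, at 0.166 and 3.34 FPKM, and the class I activator *Nlrc5*, at 0.105 and 1.96 FPKM. The proteasome genes *Psmb9* (0.848 and 5.21 FPKM) and *Psmb10* (2.94 and 8.14 FPKM) and the checkpoint ligand *Cd274* (1.57 and 5.53 FPKM) were called too. The exception was *Ciita*, the class II activator, at 1.69 and 1.59 FPKM. *Tap2*, the partner of *Tap1*, and *Ido1* were listed at 0 in both libraries, and *Psmb8* was under the minimum at 0.299 and 1.15 FPKM.

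Other interferon-induced genes were called higher in 13 of 25, which were 9 of the 20 with at least 1 FPKM in CTRL, beside 4.20% of all such genes, and 4 of the 5 below it, beside 66.5%, which is no result. The most abundant of them was *Cmpk2*, a mitochondrial nucleotide kinase, at 30.7 FPKM in CTRL and 75.9 FPKM in IR12. *Ifitm3*, which blocks virus entry, was at 7.17 and 43.2 FPKM, and *Ifitm1* at 0.710 and 7.69 FPKM. The growth regulator *Slfn3* had the largest log2 ratio of FPKM + 1 of the 13, from 1.03 to 15.1 FPKM, at 2.99. As plain FPKM ratios, *Apol9a* at 36.6 and *Oasl2* at 16.3 lay above its 14.7. Also called were *Oasl2*, *Herc6*, *Samd9l*, *Trim21*, *Lgals3bp*, *Uba7*, *Parp12*, *Apol9a* and *Slfn2*, with log2 ratios from 1.02 to 2.16. The other 12 tested genes of this list were not called with FPKM as deposited. After rescaling to the same sum *Adar*, *Ifi27*, *Ifi35*, *Rtp4*, *Pml*, *Lgals9* and *Tor3a* were, beside 22.3% of all genes tested. Relative to the median of all genes each of these lay under the line there, with *Lgals9* highest at 0.92. *Trim21* and *Uba7* were not called where that sum left out small non-coding RNA genes. *Uba7* also lay under the line, at 0.997, when centred on the median gene.

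**Figure D4:**
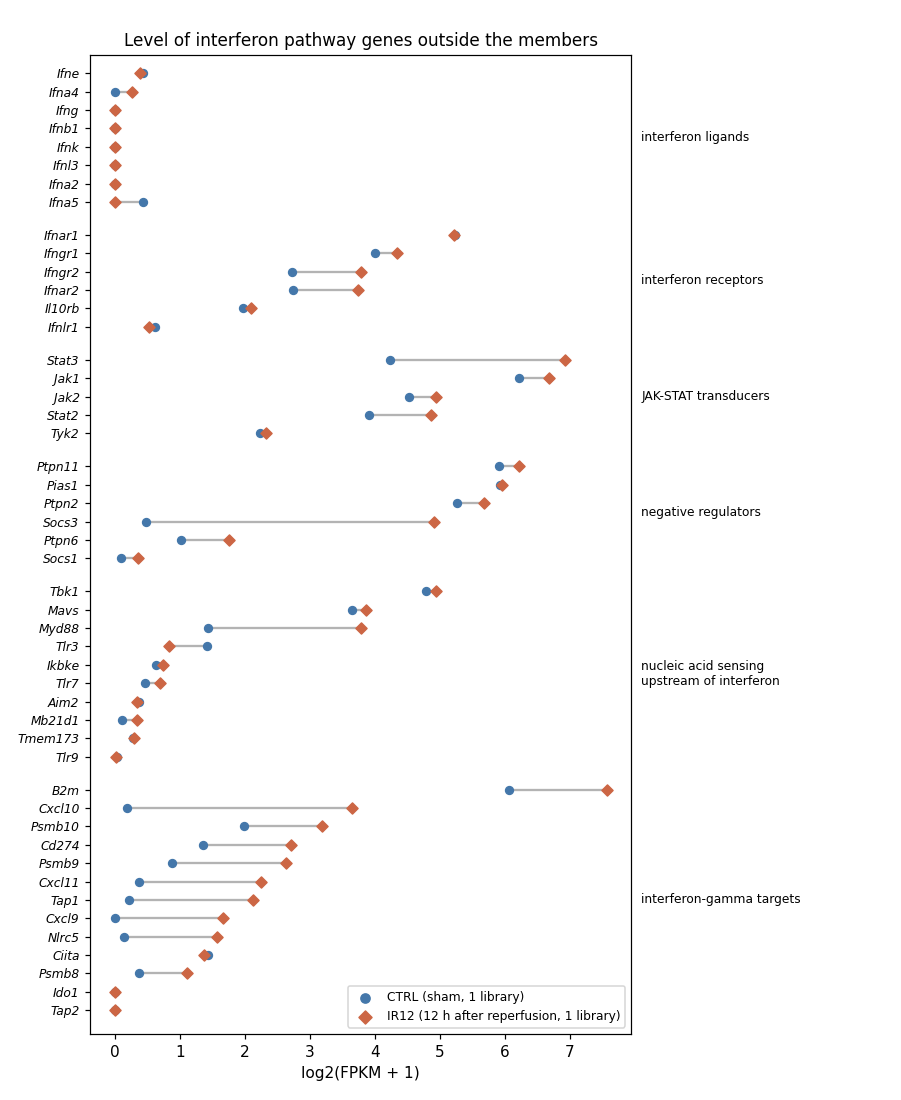
Level as log2(FPKM + 1) of interferon ligands, receptors, Jak and Stat transducers, negative regulators, nucleic acid sensing genes and interferon-gamma targets outside the members, in CTRL (circles) and IR12 (diamonds). Ligands lie near 0 in both libraries, the receptor *Ifnar1* has nearly the same level in both (36.5 and 36.2 FPKM), and *Stat3*, *Socs3* and *Cxcl10* show wide gaps.

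Markers of other cells also differed between the libraries, and their part in the members' changes was not tested. In whole retina, a change in the number of cells of a type and a change in RNA per cell cannot be told apart. Of 10 neutrophil markers, 2 passed the minimum, both only through IR12, so their calls are not read as a result. Their summed level was 0.422 FPKM in CTRL and 40.3 FPKM in IR12, led by *S100a9* at 0.199 and 23.0 FPKM. *S100a8*, *Cxcr2*, *Camp* and *Mmp8* were listed at 0 in CTRL, and the granule genes *Mpo* and *Elane* at 0 in both. *Ngp*, under the minimum, was lower in IR12, at 0.145 and 0.127 FPKM, a ratio of 0.878 that 2 and 3 reads give in the whole-read matches below. Of 12 monocyte and macrophage markers, 6 of 7 tested were called higher. All but *Lyz2* of the 7 were under 1 FPKM in CTRL, and 5 of those 6 were called, beside 66.5% of all such genes. The sum was 13.1 FPKM in CTRL and 96.5 FPKM in IR12. *Lyz2* led both sums at 9.73 and 76.9 FPKM, *Ccr2* was listed at 0 and 0.854 FPKM, *Ms4a7* at 0 and 0.0386 FPKM, and *Ly6c* at 0 in both. *Cd163* (0.131 and 0.0110 FPKM) and *Mrc1* (0.258 and 0.166 FPKM), both under the minimum, were lower in IR12.

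Lymphoid cells left little trace. The 10 T and NK cell markers summed to 1.40 FPKM in CTRL and 2.02 FPKM in IR12, most of it *Cd4* at 1.09 and 1.08 FPKM. *Cd3e*, *Cd3d*, *Klrd1*, *Prf1* and *Ncr1* were listed at 0 in CTRL and at most 0.123 FPKM in IR12, and *Gzmb* was at 0 in both. The 6 markers of B cells and plasmacytoid dendritic cells, a main source of type I interferon, summed to 26.7 and 20.8 FPKM. Nearly all of that was *Tcf4*, which many cells express, while *Siglech* was listed at 0 and 0.0595 FPKM and *Cd79a* at 0 in both.

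Markers of resident cells did not move together. The 8 microglia markers summed to 17.6 FPKM in CTRL and 13.7 FPKM in IR12, led by *Aif1*. Of 4 tested, 1 was called lower, beside 6.05% of all genes tested. This was *Gpr34*, at 4.56 and 0.762 FPKM. It shares its listed locus with genes at up to 23.8 and 21.2 FPKM, and without it the sums were 13.1 and 13.0 FPKM. *P2ry12* shares its own with genes at up to 15.2 and 5.30 FPKM. By any amount 6 of the 8 were lower, where 8926 of the 32662 genes were lower and 10174 higher. The 6 were *Gpr34*, *P2ry12* (1.67 and 0.650 FPKM), *Cx3cr1* (1.16 and 0.676 FPKM), *Sall1* (0.714 and 0.334 FPKM), *Trem2* (0.272 and 0.159 FPKM) and *Tmem119* (0.231 and 0.0967 FPKM). For *Cx3cr1* and *Trem2* the FPKM ratio was 0.586, which equal read numbers give in the whole-read matches below. *Aif1* (5.42 and 7.36 FPKM) and *Csf1r* (3.61 and 3.71 FPKM) were higher. Of 7 Müller glia markers, 6 were called lower, beside 6.05% of all genes tested, with *Glul* at 754 and 126 FPKM, and the sum went from 1621 to 573 FPKM. The exception was *Vim*, at 121 and 221 FPKM. After rescaling to the same sum *Slc1a3* and *Apoe* were not called lower and *Vim* was called higher. Relative to the median of all genes the 3 were at -1.25, -1.28 and 0.89 there. Of 2 tested astrocyte markers, *Gfap* was called higher at 2.95 and 21.9 FPKM, and *S100b* lower at 25.8 and 5.81 FPKM. The 7 rod markers summed to 10282 and 11953 FPKM, and none was called in either direction with FPKM as deposited. *Sag* was called higher after rescaling to the same sum, beside 22.3% of all genes tested, and lay at 0.95 relative to their median. *Rcvrn* was called lower, at -1.02, where that sum left out small non-coding RNA genes, beside 6.84% of all genes tested. Relative to their median *Rcvrn* lay at -0.95 there.

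The remaining lists bear on what each sample held. The 6 lens markers summed to 3367 FPKM in CTRL and 399 FPKM in IR12, led by *Cryba1* at 1614 and 196 FPKM. All 6 were called lower, beside 6.05% of all genes tested. The 4 matched blood markers summed to 28.4 and 52.6 FPKM, led by *Hbb* at 20.4 and 35.1 FPKM, with *Hba-a2* called higher at 6.77 and 17.1 FPKM, while *Hba-a1* (0.859 and 0.168 FPKM) and *Alas2* (0.334 and 0.196 FPKM), under the minimum, were lower. The FPKM ratio of *Alas2* was 0.586, which equal read numbers give in the whole-read matches below. Ganglion cell markers summed to 294 and 242 FPKM over 8 genes, led by *Nefl* at 132 and 88.8 FPKM, with *Pou4f2* the 1 called, lower at 3.41 and 1.06 FPKM. *Rbpms* was higher, at 5.69 and 7.46 FPKM. Endothelial and pericyte markers summed to 52.3 and 30.4 FPKM over 6 genes, led by *Rgs5*, which was called lower at 38.6 and 17.6 FPKM. Without it the sums were 13.8 and 12.8 FPKM, and *Cdh5* (0.883 and 1.63 FPKM) and *Vwf* (1.91 and 2.44 FPKM) were higher in IR12. Pigment epithelium markers summed to 77.3 and 96.6 FPKM over 5 genes, led by *Ttr* at 61.8 and 87.4 FPKM. In the same list *Rpe65* was called lower at 11.1 and 4.88 FPKM, and *Best1* and *Tyr*, under the minimum, were lower too. After rescaling to the same sum *Pou4f2*, *Rgs5* and *Rpe65* were not called, but lay at -1.34, -1.09 and -1.10 relative to the median of all genes. *Hbb* and *Ttr* were called higher there, beside 22.3% of all genes tested, and lay at 0.77 and 0.52 relative to that median. The lens sum thus differed between the samples as well as the members.

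**Figure D5:**
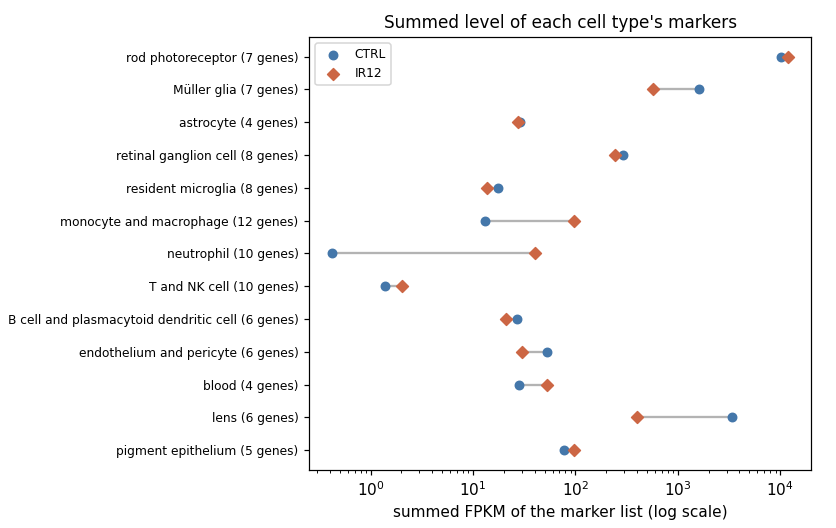
Summed FPKM of each cell type's marker list in CTRL (circles) and IR12 (diamonds), on a log axis, with the number of genes in the table. Neutrophil (0.422 to 40.3 FPKM) and monocyte and macrophage (13.1 to 96.5 FPKM) sums are higher in IR12, lens (3367 to 399 FPKM) and Müller glia (1621 to 573 FPKM) sums are lower, and rod sums are close.

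The reads behind a low value set its precision. FPKM tables give no read totals, but among genes above 0 in both libraries the ratio of CTRL to IR12 values was most often 1.708, shared by 507 genes within 0.0001. It was taken as the FPKM of a single read in CTRL over that in IR12. The paper gives the total reads of both libraries, with more in IR12, but their ratio is smaller than this constant. The reason for the gap was not tested. With this constant, 80.4% of the 3793 genes above 0 in both libraries and under 1 FPKM in CTRL matched a ratio of whole reads within rounding. The match gives the lowest read numbers a gene can rest on, and thus the widest 95% exact (Clopper-Pearson) interval for its FPKM ratio. The match assumes whole reads. Reads that fit several genes of a family could have been split, so the read numbers and intervals of *Gbp4*, *Gbp5* and *Mx1* are less certain. Intervals cover counting error only, since reads are not independent molecules and animals vary.

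For *Isg15* the lowest numbers were 1 read in CTRL and 79 in IR12, and the ratio of 46.3 had an interval of 8.06 to 1850. For *Gbp5* they were 6 and 397 reads, and the ratio of 38.7 had an interval of 17.6 to 106. For *Gbp4* they were 8 and 209 reads, and the ratio of 15.3 had an interval of 7.62 to 35.9. In all 3 genes the size of the change was loosely set. All 3 were under 1 FPKM in CTRL and passed the minimum only through IR12, so no direction is read from these intervals.

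For *Irf7* the lowest numbers were 14 and 297 reads, with a ratio of 12.4 (7.29 to 23.0). For *Rsad2* they were 12 and 233 reads, with a ratio of 11.4 (6.39 to 22.3). For *Usp18* they were 15 and 272 reads, with a ratio of 10.6 (6.32 to 19.2). The intervals of these 3 ratios overlap, and with higher read numbers they would be narrower. For *Mx1* the ratio was 6.98 (4.05 to 13.1), for *Dhx58* 3.79 (2.38 to 6.32), for *Irgm* 3.20 (1.83 to 5.98) and for *Irf8* 2.32 (1.59 to 3.49). All 10 members with such a match had an interval above 1, but no count is read from this. Of them, *Gbp4*, *Gbp5*, *Isg15*, *Mx1*, *Rsad2*, *Irf7* and *Irf8* were under 1 FPKM in CTRL and passed the minimum only through IR12. The intervals compare these libraries and not the conditions.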

How the data were processed

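The deposited table gives gene-level FPKM for 1 CTRL and 1 IR12 library of rat retina, which the authors made from single-end reads shortened at the 3′ end. The submitters' processing notes name STAR 2.5.2b, Cuffdiff 2.2.0 and rn6. The labels and the paper's supplement name a total RNA kit with removal of ribosomal RNA, and the series text an mRNA kit. Printed starts are 1-based.

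FPKM was not rescaled, because small non-coding RNA genes, recognised by symbol, took 68.1% of the sum in CTRL and 46.3% in IR12. Log2 ratios used a pseudocount of 1 and genes with a mean FPKM of at least 1. The members and lists were chosen with earlier results of these data known. Named genes are all members, pathway genes past 2-fold, receptors, Jak and Stat genes, and markers, each from its row with the highest mean. Ligands, *Ciita*, *Tap2*, *Ido1* and *Psmb8* were named after their values were seen. So were genes that share or adjoin a member's locus, and pathway genes past 2-fold only after rescaling. Of the pathway and marker genes first listed, 3 are not reported here, for a reason other than their values, and list counts and sums describe the genes that remain. In the pathway list 9 symbols were matched to no row and were not analysed here.

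The alternatives were a pseudocount of 0.1, rescaling to the same sum with or without small non-coding RNA genes, centring on the median gene, and other minimums. Whole-read matches, chosen after seeing the data, had to agree within rounding of 6 digits, with up to 40 reads in CTRL and at most 0.05 matches expected from rounding. Motifs were searched on both strands of RefSeq windows (GRCr8), and ISRE and GAS letters can overlap. Steps ran in Python 3.11.15 (numpy 2.4.6; pandas 2.3.3), with intervals from scipy 1.17.1 and plots from matplotlib 3.10.9, and were tested on simulated data.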

Additional observations from a re-analysis of the deposited data

How the results depend on the processing

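The number of members at least 2-fold higher in IR12 was 25 and ranged from 24 to 29 under the pseudocount of 0.1, the 3 scalings and the 2 looser minimums. With a mean FPKM of at least 5 it was 12, of 14 members left, and the pathway count was 14, of fewer genes tested, in place of 26. The pathway count was 39 after rescaling to the same sum, where 22.3% of all genes tested were called higher in place of 6.29%. With a pseudocount of 0.1 it was 31, beside 7.84%. Centred on the median gene it was 25, beside 6.11%, and without small non-coding RNA genes in the sum 23, beside 5.57%. The share was 5.45% with a mean FPKM of at least 5, 4.67% with no minimum and 6.56% with at least 1 FPKM in either library. The same shares stand beside the counts of members. No member was at least 2-fold lower under any of the 7 alternatives. The medians of the members, of the guanylate-binding proteins, of the antiviral effectors and of the interferon regulatory factors stayed above 0 under all 7. Except with no minimum, they include members that passed only through IR12, so a median above 0 is partly set by the minimum. This does not hold for the regulatory factors with a mean FPKM of at least 5, where the median was 1.35. The factors kept there, *Irf1*, *Irf2*, *Irf3* and *Irf9*, were all over 5 FPKM in CTRL. With FPKM as deposited, medians at 1 FPKM or more in CTRL were 1.76 for 19 members, 1.22 for 5 effectors and 1.35 for 4 regulatory factors.

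Rescaling to the same sum shifted the median of all genes by 0.59. It moved the medians over tested genes from 1.84 to 2.45 for the members, from 3.17 to 3.77 for the guanylate-binding proteins, from 1.76 to 2.39 for the antiviral effectors and from 1.35 to 1.98 for the regulatory factors. Relative to all genes the members' median was then 1.83, beside 1.82 as deposited. Genes called higher went from 829 to 2935 and genes called lower from 798 to 448, so that 86.8% of calls were higher in place of 51.0%. The log2 ratio of *Irf2* turned to 0.069, and was -0.55 relative to all genes. *Igtp*, *Irf3*, *Irf8* and *Oasl* passed the 2-fold line there, as did *Ifnar2*, *Stat2*, *Jak1*, *Jak2*, *Ptpn2*, *Ptpn6*, *Adar*, *Ifi27*, *Ifi35*, *Rtp4*, *Pml*, *Lgals9* and *Tor3a*. Relative to the median of all genes each of these lay under the line, with *Ifnar2* highest at 0.99. Without small non-coding RNA genes in the sum, *Ifit2* lay at 0.98 and *Ifngr2* at 0.97, both under the line, as were *Trim21* and *Uba7*. Centred on the median gene, *Uba7* lay at 0.997. Of the tested markers, *Slc1a3*, *Apoe*, *Pou4f2*, *Rgs5* and *Rpe65* were not called lower after rescaling to the same sum. Relative to the median of all genes they lay between -1.34 (*Pou4f2*) and -1.09 (*Rgs5*). *Sag*, *Vim*, *Cd68*, *Hbb* and *Ttr* were called higher there, and lay between 0.52 (*Ttr*) and 0.95 (*Sag*) relative to that median. *Rcvrn* was called lower, at -1.02, without small non-coding RNA genes in the sum.

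With a pseudocount of 0.1 the medians were 4.83 for the guanylate-binding proteins and 2.61 for the effectors, since the smaller constant raises ratios of low genes. With a mean FPKM of at least 5 they were 4.82 and 2.56, over fewer genes, and with no minimum that of the guanylate-binding proteins was 2.49, with *Gbp1* included. Of 148 values of single members under the pseudocount and scaling alternatives, 115 moved by less than 1.5-fold, 32 by more and 1 changed sign. With 1 library per condition no library could be left out, and no paired analysis was possible because each condition has a single library. Counting error limits values under 1 FPKM.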
